A study of Homo sapiens with 15 samples.

Results

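The comparison set 3 libraries of cells expressing the intracellular domain of NOTCH2 (NICD2, doxycycline-induced) against 3 libraries of an isogenic empty vector control (EV). These are 6 of the 15 libraries of the series, taken by their group titles. The other 9 libraries express the intracellular domain of NOTCH1, NOTCH3 or NOTCH4 (NICD1, NICD3 and NICD4, 3 each) in the same way. One library titled NICD4 (replicate 1) is called NICD3 in its source and genotype labels and was kept in NICD4. One library titled NICD3 (replicate 1) has NICD23 in its genotype label and was kept in NICD3. The RNA was polyadenylated and sequenced as bulk, so fewer cells of a type and less RNA per cell cannot be told apart. The labels give HCT116, a colorectal carcinoma line, while the sample descriptions give U373, a glioma line. Neither the amount and length of doxycycline treatment, its use in EV cells, the number of clones behind each line nor the origin of replicates from separate cultures is stated. The p-values therefore reflect only how these libraries varied, possibly for technical reasons, and a difference between the EV line and the NICD2 line cannot be told apart from an effect of NICD2 itself.

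The markers of both named cell types were only partly present. Of 16 colorectal epithelial markers, 8 passed the filter on low counts, with the epithelial adhesion gene EPCAM at 144, 155 and 158 CPM in EV and 275, 309 and 258 CPM in NICD2. The intestinal genes CDX1, PHGR1 and CEACAM5 had at most 1 read over the 6 libraries, and the summed level of the tested colorectal markers ran from 176 to 189.9 CPM in EV and from 306 to 349 CPM in NICD2. Of 18 astrocyte and glioma markers, 8 were tested. The astrocyte filament gene GFAP stood at 1.72, 1.296 and 1.88 CPM in EV and 1.07, 0.888 and 0.986 CPM in NICD2, and AQP4, OLIG2, GJA1, FABP7 and CHI3L1 had at most 2 reads each. The summed level of the tested astrocyte markers ran from 109 to 114 CPM in EV and from 122 to 133 CPM in NICD2. The glutamate transporter SLC1A3 alone rose from 20.3 to 50.2 CPM, by more than the sum did, and BCAN rose from 2.87 to 5.02 CPM. Of the 8 genes 5 were called lower (GFAP, ALDH1L1, NES, CD44 and NCAM1), and the median log2 difference was -0.42. CPM is the read count per 1000000 reads of the library's total after scaling by TMM factors, which correct for differences in composition. It is not adjusted for gene length, so levels are compared between libraries and not between genes, and a summed CPM weighs long genes more.

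NOTCH receptors are cut at the membrane after a neighbouring cell's ligand binds, and the freed intracellular domain enters the nucleus. There it joins the DNA-binding protein RBPJ and the coactivator MAML and switches on genes, many of which encode repressors of the HES and HEY families. Expressing the domain alone bypasses the ligand and both cleavages. In the intestine NOTCH signalling holds progenitors back from the secretory fate, and in other epithelia it can promote or restrain growth.

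As a check of the labels, HES1, the classical NOTCH target, stood at 20.1, 18.9 and 19.2 CPM in EV and 107, 101 and 107 CPM in NICD2. The groups did not overlap (log2 difference 2.43 ± 0.08 SE, limma adjusted p = 1.9e-11). HES1 means were 39.6, 48.7 and 57.1 CPM in NICD1, NICD3 and NICD4, each called higher than EV and lower than NICD2. A rise of HES1 above EV thus did not single out NICD2. NOTCH2 itself was at 30.3, 32.9 and 30.4 CPM in EV and 42.3, 40.2 and 42.8 CPM in NICD2. Reads from the introduced domain cannot be told apart from those of the cell's own NOTCH2 gene. The difference was modest (log2 difference 0.42 ± 0.07 SE, limma adjusted p = 0.000111), and the call was lost under library totals alone. NOTCH2 means were 36.5, 30.7 and 40.2 CPM in NICD1, NICD3 and NICD4. NICD2 was not called different from NICD4 (log2 difference 0.06, limma adjusted p = 0.485), so NOTCH2 did not check the label. EV libraries held 18246214 to 24484366 counted reads and NICD2 libraries 14673469 to 22785395.

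NICD2 and EV differed across much of the transcriptome. Of 15122 genes tested, 4477 (29.6%) were called higher and 4525 (29.9%) lower in NICD2 at an adjusted p under 0.05 from limma, and 1362 (9.01%) and 1713 (11.3%) of these differed by at least 2-fold. In 5072 tested genes (33.5%) every NICD2 library lay above every EV library, and in 5390 (35.6%) every one lay below. A lack of overlap reported below for single genes was thus common among all genes. Without EV replicate 2 or replicate 3 those lower by at least 2-fold numbered 1005 and 1107. Scaling to library totals alone gave 2847 higher and 6661 lower, because it lowered the median difference over all genes by 0.28 on the log2 scale, from -0.03 to -0.31. List medians below are therefore read against the median over all tested genes, -0.03. Differences also rose with the GC content of the transcript, from a median of -0.35 in the lowest of 10 equal GC groups to 0.43 in the highest. With that trend removed, 4424 (30.0%) were higher and 4379 (29.7%) lower, and 3634 (24.7%) and 3615 (24.5%) were called the same way in both fits. Named genes said to have risen or fallen below were called in both fits, and counts of list members are from the fit without GC removal. Brackets give a list's counts and median under library totals, or with the GC trend removed, where the median turned sign or a count of at least 4 moved by over 1.5 times.

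**Figure D1:**
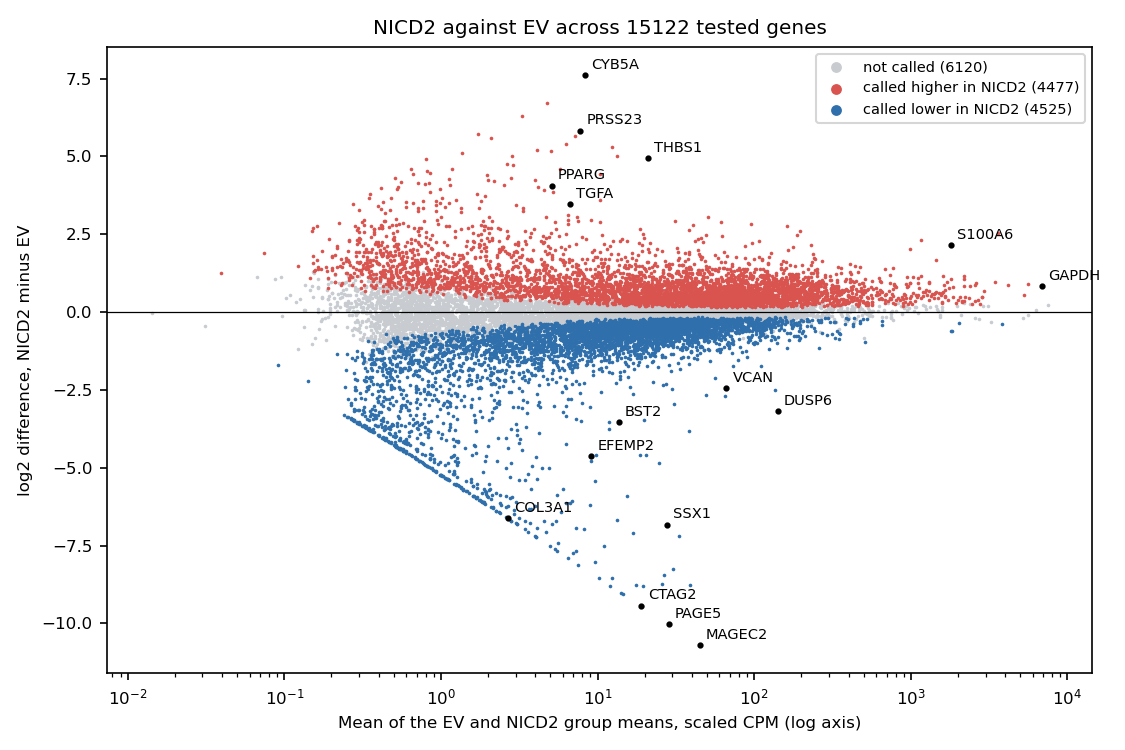
Log2 difference between NICD2 and EV (vertical axis) against the mean of the 2 group means in scaled CPM (horizontal log axis) for 15122 tested genes. Red points are the 4477 genes called higher in NICD2, blue points the 4525 called lower and grey points the rest. MAGEC2, PAGE5 and CTAG2 lie lowest among the labelled genes, and the line of blue points at lower left holds genes with no read in NICD2.

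The largest rises were in genes nearly silent in EV. The 25 named here are the largest among called genes that reached 5 CPM in the higher group, did not overlap between groups and kept their call without the GC trend, leaving out keratins and the core NOTCH genes. For these genes the lack of overlap was a condition of the choice and adds no support. Their means ran from 0.0333 to 1.55 CPM in EV and from 5.12 to 40.7 CPM in NICD2. All 25 were also called higher than EV in each of NICD1, NICD3 and NICD4, and these comparisons share the EV libraries. Directly, 7, 4 and 15 of them were called higher in NICD2 than in NICD1, NICD3 and NICD4, and 5, 4 and 4 lower. CYB5A, which encodes the electron carrier cytochrome b5 (GRCh37 chr18:71920528-71959251), had 3 reads over the EV libraries and 1012 over the NICD2 libraries, a ratio of 453 (exact 95% interval 155 to 2200.5). GRHL2, a transcription factor of epithelial identity, went from 3 to 572 reads, a ratio of 256 (exact 95% interval 87.2 to 1245). CR2, complement receptor 2, went from 3 to 399 reads, a ratio of 179 (exact 95% interval 60.7 to 869.8). The intervals cover counting error only.

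The rises are given first. THBS1, the matrix glycoprotein thrombospondin 1 (GRCh37 chr15:39873280-39891667), stood at 1.18, 1.296 and 1.19 CPM in EV and 32.2, 57.7 and 32.3 CPM in NICD2. Each NICD2 library lay far above every EV library, with 1 NICD2 library well above the other two (log2 difference 4.94 ± 0.21 SE, limma adjusted p = 1.88e-10). The serine protease PRSS23 was at 0.136, 0.308 and 0.2296 CPM in EV and 14.7, 17.2 and 14.1 CPM in NICD2, again without overlap (log2 difference 5.83 ± 0.20 SE, limma adjusted p = 2.02e-11). A second trypsin-like protease, PRSS22, rose from 0.431 to 11.1 CPM. FGF9, a fibroblast growth factor, rose from 0.229 to 5.38 CPM, and TGFA, a ligand of the EGF receptor, rose from 1.06 to 12.2 CPM. FXYD3, a regulator of the sodium pump, rose from 0.464 to 7.86 CPM. PCDH1, a protocadherin of epithelial contacts, rose from 0.643 to 9.68 CPM. ALPP, placental alkaline phosphatase, rose from 0.353 to 7.59 CPM.

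PPARG, the nuclear receptor of fat cells that colonic epithelium also expresses, was at 0.317, 0.586 and 0.765 CPM in EV and 9.75, 10.5 and 8.73 CPM in NICD2. The lowest NICD2 library exceeded the highest EV library by more than the whole range within either group (log2 difference 4.06 ± 0.30 SE, limma adjusted p = 4.63e-08). RBM47, an RNA-binding protein and partner of the APOBEC1 editing enzyme, stood at 0.589, 0.494 and 0.612 CPM in EV and 27.2, 19.9 and 25.9 CPM in NICD2, with no overlap (log2 difference 5.29 ± 0.18 SE, limma adjusted p = 2.02e-11). COBL, an actin nucleator, rose from 0.229 to 14.2 CPM. MACC1, a colon cancer gene that raises MET transcription, rose from 0.155 to 5.12 CPM, while MET itself fell from 45.6 to 28.7 CPM. ASB2, a ubiquitin ligase subunit, rose from 0.268 to 12.4 CPM, and CALB2, the calcium-binding protein calretinin, rose from 0.1603 to 5.63 CPM. PPP1R1A, an inhibitor of protein phosphatase 1, rose from 0.600 to 6.12 CPM. The other named rises were RIMS2, LRRN2, ZFR2, TM4SF18, C6orf132, ARHGEF37 and MTUS1, between 3.35 and 5.17 on the log2 scale.

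RBPJ binds the core TGGGAA, so the upstream sequence of these genes was read for it. RefSeq promoters (GRCh38.p14, the 250 bases before the annotated start) matched 17 of the 25 named rises by symbol, and 3 of the 17 held TGGGAA on either strand (17.6%). Over all 27305 RefSeq promoters of that length the share was 21.1%, and over genes called higher by at least 2-fold it was 21.3% of 904 matched. Of the 25 named falls 21 were matched and 7 held TGGGAA (33.3%), and the share was 20.2% of 1140 matched genes called lower by at least 2-fold and 19.5% of the 11001 promoters of tested genes. The longer form GTGGGAA, which contains the core, was in 1 of the 17, against 5.46% of all promoters. The 3 are shown beside HES1, the classical NOTCH target, in gene orientation with the core or its reverse complement in capitals. The 2 matches in HES1 are in the same orientation and are not offered as a known pair of sites. A match is a description of letters and not a site of binding, and other windows were not searched.
HES1, chr3:194135898-194136147, plus strand, starts of the matches at 84 and 70 bases before the gene's start: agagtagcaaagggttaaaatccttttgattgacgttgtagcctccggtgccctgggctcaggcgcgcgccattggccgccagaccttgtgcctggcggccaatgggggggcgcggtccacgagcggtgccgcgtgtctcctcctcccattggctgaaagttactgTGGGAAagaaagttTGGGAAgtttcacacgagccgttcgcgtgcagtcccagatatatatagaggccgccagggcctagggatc
TM4SF18, chr3:149333637-149333886, minus strand, 1 match: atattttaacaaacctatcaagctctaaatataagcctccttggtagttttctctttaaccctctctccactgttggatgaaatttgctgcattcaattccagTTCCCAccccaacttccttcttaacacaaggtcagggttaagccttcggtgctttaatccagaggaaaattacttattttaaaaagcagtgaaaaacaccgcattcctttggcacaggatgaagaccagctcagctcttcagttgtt
RBM47, chr4:40630595-40630844, minus strand, 1 match: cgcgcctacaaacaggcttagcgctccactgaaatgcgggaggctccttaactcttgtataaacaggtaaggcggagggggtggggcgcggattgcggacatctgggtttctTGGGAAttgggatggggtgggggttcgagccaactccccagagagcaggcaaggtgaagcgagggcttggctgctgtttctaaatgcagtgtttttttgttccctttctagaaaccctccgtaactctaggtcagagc
FXYD3, chr19:35117750-35117999, plus strand, 2 matches: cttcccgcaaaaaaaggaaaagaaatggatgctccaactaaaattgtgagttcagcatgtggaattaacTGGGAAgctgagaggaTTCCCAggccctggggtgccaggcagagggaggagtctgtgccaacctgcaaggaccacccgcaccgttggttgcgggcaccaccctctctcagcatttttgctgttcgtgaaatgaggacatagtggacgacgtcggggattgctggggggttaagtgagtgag

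Some genes had no read in any EV library. Apart from the keratin KRT3, the gene with the most reads in NICD2 was the long noncoding RNA LINC00678, with 25, 28 and 22 reads in the 3 NICD2 libraries. Taking 3 reads over the EV libraries as the floor, it was at least 33.6-fold higher. IZUMO3, a sperm membrane protein, had 15, 28 and 19 reads and was at least 27.8-fold higher. MMP7, the matrilysin protease of glandular epithelium, had 9, 22 and 13 reads and was at least 19.7-fold higher. NTN4, the basement membrane protein netrin 4, had 6, 28 and 11 reads and was at least 20.1-fold higher. All of these stayed under 2 CPM in NICD2.

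Many of the largest falls were germline genes, and all 25 named falls were lower in each of the 4 NICD groups than in EV by their means. The 25 named falls, chosen by the same rule, stood at 8.08 to 89.8 CPM in EV and at no more than 0.155 CPM in NICD2, where 13 had no read. MAGEC2, a cancer-testis antigen on the X chromosome (GRCh37 chrX:141290131-141293076), stood at 81.4, 93.2 and 94.9 CPM in EV and 0, 0 and 0 CPM in NICD2, which is at least 1812-fold lower. PAGE5 and CTAG2, also cancer-testis genes, were at least 1121-fold and 742-fold lower. In all, 13 of the 25 lie on the X chromosome, which holds 543 of the 15122 tested genes. Of all tested X genes 33.1% were called lower, beside 29.9% of all tested genes. The GAGE genes GAGE1, GAGE2A, GAGE12H and GAGE12J are near-identical copies, so their separate values are uncertain. Outside the germline families, TUSC3, a subunit of the oligosaccharyltransferase complex, was at 26.4, 29.1 and 29.1 CPM in EV and 0, 0 and 0 CPM in NICD2, and SLC17A8, a vesicular glutamate transporter, was at 17.6, 22.7 and 21.2 CPM in EV and 0, 0 and 0 CPM in NICD2. MYT1L, a neuronal zinc finger factor, was at 10.6, 11.1 and 11.5 CPM in EV and 0, 0 and 0 CPM in NICD2. The same 25 genes had means of at most 0.497 CPM in NICD1, and in NICD3 and NICD4 the highest was the germ cell factor SOHLH2 at 4.296 and 1.32 CPM. These comparisons share the EV libraries.

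Not every germline gene fell. Of the list of 25 tested germline genes, 3 rose and 20 fell, with a median log2 difference of -7.09 (also -7.09 with genes of no NICD2 read set at their 3-read bound). The list medians against EV were -6.70, -6.98 and -7.19 in NICD1, NICD3 and NICD4. Members nearly silent in every NICD group passed the filter on low counts only through their EV reads. Such members could only fall, so the count of falls and the median are largely set by the filter. PAGE1, of the same family as PAGE5, was at 481, 293 and 364 CPM in EV and 1108, 745 and 1108 CPM in NICD2, with every NICD2 library above every EV library (log2 difference 1.39 ± 0.21 SE, limma adjusted p = 5.57e-05). PRAME, an antigen of testis and tumours, rose from 64.98 to 89.5 CPM, a call lost under library totals alone. MAGEA12 fell only from 97.9 to 79.6 CPM, whereas its neighbour in the family MAGEA1 fell from 65.8 to 0.438 CPM and SSX1 fell from 54.7 to 0.448 CPM. MAGEA genes share sequence, and the split of reads among them is uncertain. DPPA4, a pluripotency gene, fell from 21.8 to 0.0686 CPM.

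**Figure D2:**
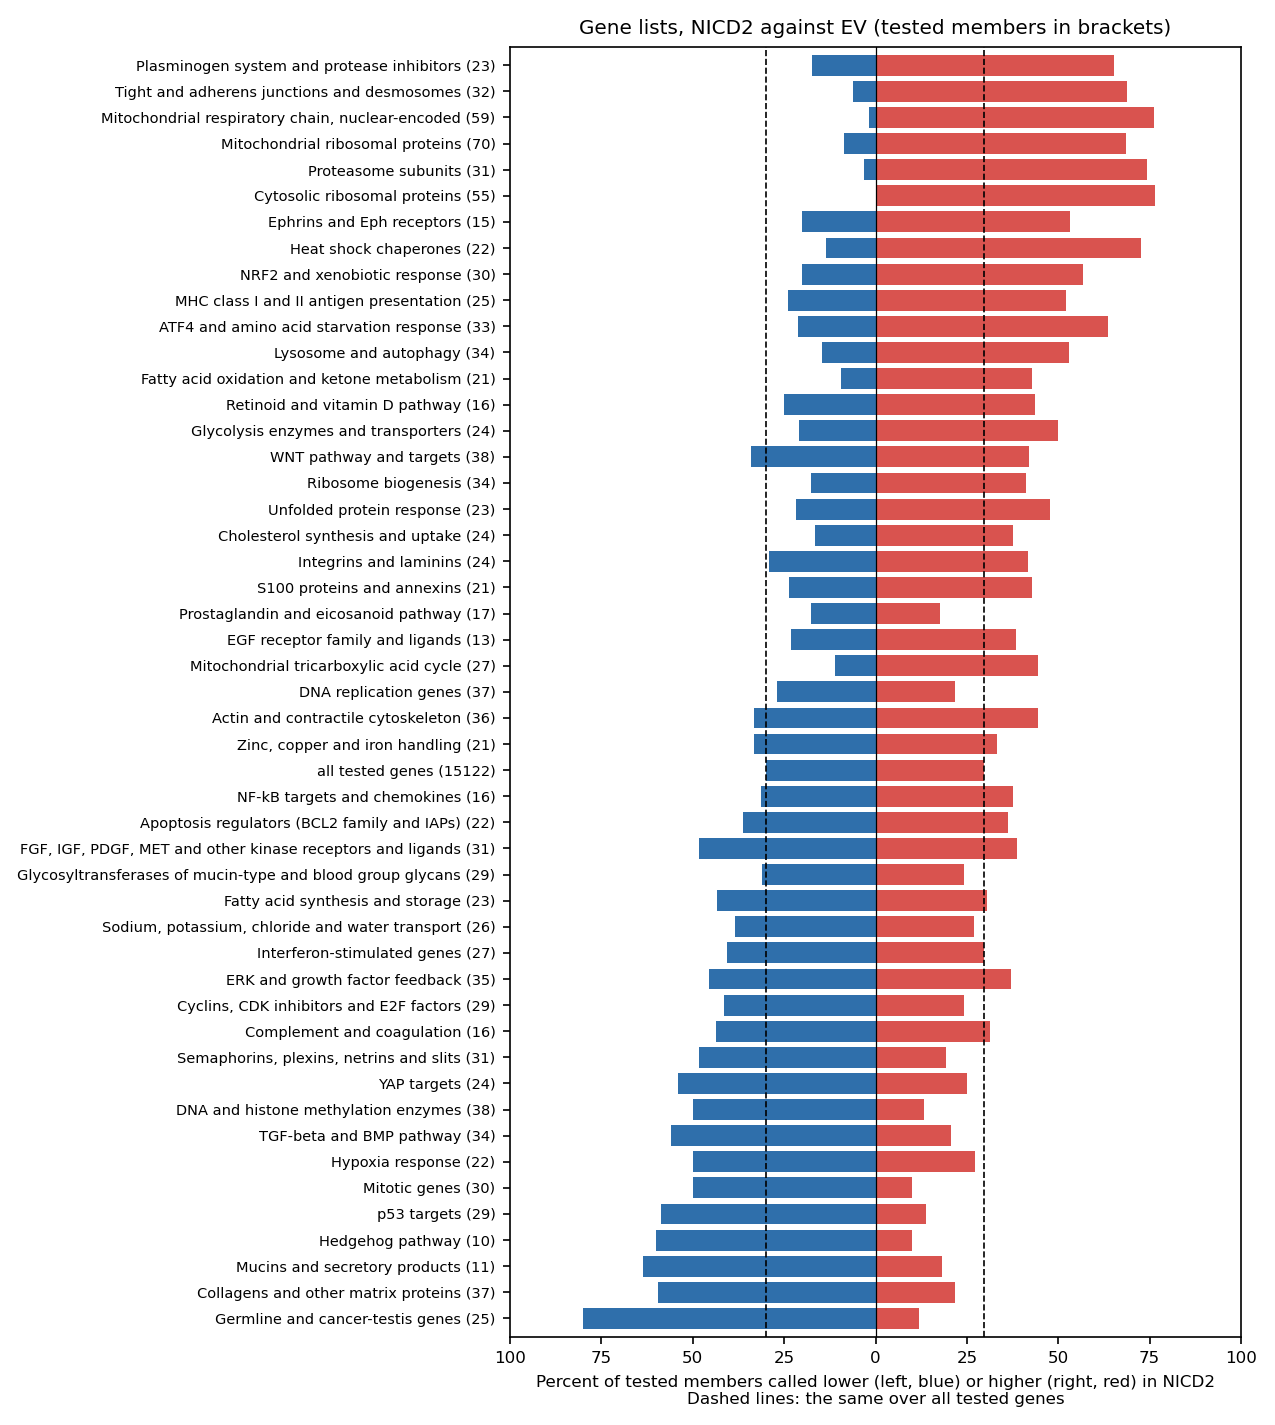
Percent of tested members of each gene list called lower (blue, left) or higher (red, right) in NICD2 against EV, with lists ordered by median log2 difference. The colorectal and astrocyte marker lists, with 8 tested members each, are not shown. Dashed lines mark the shares over all tested genes, 29.9% lower and 29.6% higher. Protease, junction, respiratory chain, ribosome and proteasome lists lie at the top, and matrix, mucin and germline lists at the bottom. Members nearly silent in all NICD groups were tested only through their EV reads and could only fall.

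Genes of protein synthesis and breakdown were higher as groups. Of 55 cytosolic ribosomal protein genes, 42 rose and 0 fell, with a median log2 difference of 0.49 (26 and 1 with a median of 0.21 under library totals alone). RPL36, of the large subunit, was at 1279.8, 778 and 921 CPM in EV and 2474, 1639 and 2544 CPM in NICD2, without overlap (log2 difference 1.16 ± 0.25 SE, limma adjusted p = 0.00103). RPS15, of the small subunit, rose from 398 to 849.7 CPM. Among 70 mitochondrial ribosomal protein genes, 48 rose and 6 fell, with a median log2 difference of 0.51 (33 and 10 with a median of 0.23 under library totals alone). MRPL23 rose from 119 to 290.5 CPM and MRPS34 rose from 249.8 to 584 CPM, while MRPS31 fell from 42.01 to 22.5 CPM. Across 34 genes of ribosome biogenesis, 14 rose and 6 fell, with a median log2 difference of 0.16 (11 and 13 with a median of -0.12 under library totals alone). The nucleolar methyltransferase FBL rose from 706 to 1507 CPM, and the RNA helicase DDX21 fell from 166 to 90.02 CPM. The proteasome list of 31 subunits had the same tilt: 23 rose and 1 fell, with a median log2 difference of 0.50 (15 and 3 with a median of 0.22 under library totals alone). PSMC4, an ATPase of the regulatory particle, was at 269, 231 and 249 CPM in EV and 524, 529.8 and 523 CPM in NICD2, and the groups did not overlap (log2 difference 1.08 ± 0.08 SE, limma adjusted p = 3.47e-08). PSMA6 was the 1 subunit that fell, from 12.8 to 4.49 CPM.

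The respiratory chain list behaved similarly. Of 59 nuclear-encoded subunits, 45 rose and 1 fell, with a median log2 difference of 0.60 (34 and 4 with a median of 0.32 under library totals alone). ATP5F1D, the delta subunit of ATP synthase, was at 146, 96.8 and 99.3 CPM in EV and 424, 270.1 and 430.1 CPM in NICD2, all 3 NICD2 libraries above all EV libraries (log2 difference 1.71 ± 0.27 SE, limma adjusted p = 9.24e-05). NDUFS6 of complex I rose from 135 to 324 CPM, COX6B1 of complex IV rose from 293 to 569.8 CPM, and UQCRQ of complex III rose from 179 to 342 CPM. The complex I subunit NDUFS1 fell from 65.3 to 42.2 CPM. Of 27 tricarboxylic acid cycle genes, 12 rose and 3 fell, with a median log2 difference of 0.03 (4 and 12 with a median of -0.26 under library totals alone). OGDH, the 2-oxoglutarate dehydrogenase, rose from 34.9 to 71.2 CPM.

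Chaperone and stress genes rose unevenly. Of 22 heat shock chaperones, 16 rose and 3 fell, with a median log2 difference of 0.48 (8 and 4 with a median of 0.20 under library totals alone). HSPB1, a small heat shock protein, was at 492, 326 and 363 CPM in EV and 1768, 1239 and 1757 CPM in NICD2. The NICD2 libraries exceeded the EV libraries by a wide margin but varied among themselves (log2 difference 2.02 ± 0.19 SE, limma adjusted p = 7.4e-07). DNAJB1, the cochaperone of HSP70, rose from 112 to 371 CPM, and HSPA8, the constitutive HSP70, rose from 1822 to 3321 CPM. HSPA1A and HSPA1B, the inducible HSP70 genes, rose from 2.17 to 9.44 CPM and from 57.4 to 316 CPM, but they are near-identical and their split is uncertain. CRYAB, alpha-B crystallin, fell from 1.56 to 0.0925 CPM. In the unfolded protein response list of 23 genes, 11 rose and 5 fell, with a median log2 difference of 0.14 (6 and 8 with a median of -0.14 under library totals alone). SDF2L1 and MANF, proteins of the endoplasmic reticulum, rose from 87.8 to 222 CPM and from 126 to 251 CPM, whereas DNAJB11 and EDEM1 of the same compartment fell from 120.3 to 71.9 CPM and from 13.05 to 8.004 CPM.

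In the ATF4 and amino acid starvation list of 33 genes, 21 rose and 7 fell, with a median log2 difference of 0.33. CHAC1, which breaks down glutathione and is a target of ATF4, was at 4.303, 3.52 and 3.71 CPM in EV and 15.02, 14.2 and 14.7 CPM in NICD2. Even the lowest NICD2 library was above the highest EV library (log2 difference 1.92 ± 0.11 SE, limma adjusted p = 4.07e-09). PYCR1 of proline synthesis rose from 138 to 300.4 CPM, PHGDH of serine synthesis rose from 47.5 to 97.7 CPM, and the amino acid carrier SLC7A5 rose from 226 to 388 CPM. Other members went down: ALDH18A1, which acts before PYCR1 in proline synthesis, fell from 121 to 65.5 CPM, CTH of cysteine synthesis fell from 9.25 to 4.701 CPM, and the stress factor ATF3 fell from 35.9 to 19.0 CPM. Of 30 genes of the NRF2 and xenobiotic response, 17 rose and 6 fell, with a median log2 difference of 0.43 (11 and 8 with a median of 0.15 under library totals alone, and 16 and 3 with a median of 0.34 with the GC trend removed). AKR1B10, an aldo-keto reductase, was at 0.181, 0.154 and 0.191 CPM in EV and 4.21, 4.32 and 3.95 CPM in NICD2, with no overlap (log2 difference 4.20 ± 0.22 SE, limma adjusted p = 1.58e-09). HMOX1, heme oxygenase, rose from 29.6 to 55.02 CPM and GSTP1, a glutathione transferase, rose from 718 to 1600.1 CPM. CYP1A1, the classical target of the aryl hydrocarbon receptor, fell from 10.4 to 2.25 CPM, and so did the receptor's repressor AHRR, from 14.1 to 7.06 CPM.

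Genes of carbon metabolism moved in both directions. Of 24 glycolysis genes, 12 rose and 5 fell, with a median log2 difference of 0.17 (8 and 8 with a median of -0.11 under library totals alone). SLC2A1, the glucose transporter GLUT1, was at 124, 143 and 128 CPM in EV and 383, 458 and 392 CPM in NICD2, without overlap (log2 difference 1.64 ± 0.12 SE, limma adjusted p = 3.13e-08), while the neuronal-type transporter SLC2A3 was at 26.3, 29.03 and 26.1 CPM in EV and 4.81, 5.04 and 5.57 CPM in NICD2 and moved the other way (log2 difference -2.39 ± 0.14 SE, limma adjusted p = 3.72e-09). GPI, ALDOA and GAPDH rose from 427 to 849.6 CPM, from 1159 to 2240.0 CPM and from 4973 to 8837 CPM. HK1, the first enzyme, fell from 59.7 to 39.2 CPM. The hypoxia list of 22 genes leaned the other way: 6 rose and 11 fell, with a median log2 difference of -0.35 (3 and 12 with a median of -0.63 under library totals alone). HIF1A itself fell from 42.8 to 23.4 CPM, and other members of the list went both ways. ADM and KDM3A fell from 8.27 to 3.36 CPM and from 33.5 to 15.1 CPM. VEGFA, the vascular growth factor, and NDRG1 rose from 9.12 to 16.1 CPM and from 34.0 to 58.4 CPM, and AK4, P4HA2 and EGLN3 also rose.

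Among 23 genes of fatty acid synthesis and storage, 7 rose and 10 fell, with a median log2 difference of -0.17 (4 and 15 with a median of -0.45 under library totals alone). FASN, fatty acid synthase, rose from 288 to 461 CPM. FADS1, a desaturase of polyunsaturated fatty acids, fell from 84.6 to 36.3 CPM, the lipins LPIN1 and LPIN2 fell from 26.7 to 11.5 CPM and from 18.6 to 4.91 CPM, and the acyl-CoA synthetase ACSL5 fell from 7.53 to 0.973 CPM. Of 21 genes of fatty acid oxidation, 9 rose and 2 fell, with a median log2 difference of 0.20 (7 and 5 with a median of -0.08 under library totals alone). ETFB, which passes electrons from oxidation to the respiratory chain, rose from 145 to 318 CPM. The cholesterol list of 24 genes was mixed against EV: 9 rose and 4 fell, with a median log2 difference of 0.12 (7 and 7 with a median of -0.16 under library totals alone). MVD, mevalonate diphosphate decarboxylase, was at 243, 183 and 191 CPM in EV and 651, 505 and 665 CPM in NICD2, and its NICD2 libraries all exceeded EV (log2 difference 1.56 ± 0.20 SE, limma adjusted p = 1.74e-05). DHCR7, the last step of synthesis, rose from 138 to 228 CPM. HMGCS1, a synthase early in the pathway, fell from 93.8 to 58.8 CPM, and the sterol carrier STARD4 fell from 42.4 to 16.6 CPM.

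Growth factor genes moved in both directions within a pathway. Of 35 genes of ERK and growth factor feedback, 13 rose and 16 fell, with a median log2 difference of -0.22. DUSP6, the phosphatase that switches off ERK, was at 249, 265 and 252 CPM in EV and 26.97, 27.5 and 29.2 CPM in NICD2. The highest NICD2 library lay at a small fraction of the lowest EV library (log2 difference -3.19 ± 0.11 SE, limma adjusted p = 3.22e-11). DUSP5, a nuclear phosphatase of ERK, was at 218, 176 and 193 CPM in EV and 509.5, 533 and 512 CPM in NICD2, again without overlap but in the opposite direction (log2 difference 1.41 ± 0.09 SE, limma adjusted p = 9.85e-09). FOSL1 and PHLDA1 rose from 156 to 348 CPM and from 112 to 246 CPM, while EGR1, NR4A1 and FOSL2 fell from 118 to 48.7 CPM, from 17.7 to 5.798 CPM and from 43.8 to 13.5 CPM. Of 13 genes of the EGF receptor family, 5 rose and 3 fell, with a median log2 difference of 0.04 (3 and 5 with a median of -0.24 under library totals alone). BTC, betacellulin, went from 3 reads over the EV libraries to 49, a ratio of 21.9 (exact 95% interval 7.08 to 110.0), and EGF went from 68 to 2, an EV to NICD2 ratio of 25.3 (exact 95% interval 6.74 to 213).

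Of 31 genes of other growth factor receptors and ligands, 12 rose and 15 fell, with a median log2 difference of -0.15. PDGFB rose from 5.22 to 25.6 CPM, FGF19 rose from 7.79 to 30.7 CPM, and IGFBP6, a binding protein of insulin-like growth factors, rose from 10.4 to 71.5 CPM. AXL, a receptor kinase of the TAM family, fell from 91.1 to 21.03 CPM, the receptor IGF1R fell from 17.5 to 6.12 CPM, and KITLG, the ligand of KIT, fell from 111 to 51.6 CPM. Among 15 ephrin and Eph genes, 8 rose and 3 fell, with a median log2 difference of 0.49 (8 and 5 with a median of 0.20 with the GC trend removed). The ligand EFNB2, a described NOTCH target of arterial endothelium, was at 2.40, 2.28 and 2.64 CPM in EV and 18.8, 18.9 and 17.6 CPM in NICD2, with a narrow spread in each group (log2 difference 2.89 ± 0.12 SE, limma adjusted p = 1.65e-10). EFNA4 and EFNA3 rose from 7.48 to 23.3 CPM and from 5.50 to 16.4 CPM, whereas EFNB3 fell from 3.07 to 0.233 CPM.

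Proliferation genes were not uniformly lower. Of 30 mitotic genes, 3 rose and 15 fell, with a median log2 difference of -0.37 (7 and 12 with a median of -0.13 with the GC trend removed). CENPF and NUF2 of the kinetochore fell from 134 to 65.8 CPM and from 48.5 to 26.02 CPM, and TOP2A, topoisomerase II alpha, fell from 115 to 66.2 CPM, but AURKB and CDC20 rose from 79.6 to 137 CPM and from 396 to 625 CPM. Of 37 replication genes, 8 rose and 10 fell, with a median log2 difference of 0.02 (4 and 19 with a median of -0.26 under library totals alone, and 13 and 9 with a median of 0.00 with the GC trend removed). CDT1, which licenses origins, rose from 107 to 243 CPM, and TYMS, thymidylate synthase, fell from 238 to 140.3 CPM. Of 29 cyclins, inhibitors and E2F factors, 7 rose and 12 fell, with a median log2 difference of -0.24 (4 and 16 with a median of -0.53 under library totals alone). CDK6 rose from 42.2 to 105 CPM and CCND3 rose from 51.2 to 97.4 CPM, while CCND2 had 216 reads over the EV libraries and none in NICD2, at least 53.6-fold lower. RB1 fell from 16.6 to 8.55 CPM, and the E2F repressors E2F7 and E2F8 fell from 16.6 to 8.24 CPM and from 14.6 to 7.27 CPM.

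Targets of p53 were mostly lower. Of 29 tested, 4 rose and 17 fell, with a median log2 difference of -0.44. TP53INP1, which promotes p53-dependent death, was at 21.2, 23.5 and 22.5 CPM in EV and 4.74, 5.65 and 5.77 CPM in NICD2, and the groups lay far apart (log2 difference -2.05 ± 0.11 SE, limma adjusted p = 1.38e-09). FAS, the death receptor, was at 9.602, 12.1 and 11.1 CPM in EV and 3.405, 3.55 and 2.71 CPM in NICD2, also without overlap (log2 difference -1.75 ± 0.28 SE, limma adjusted p = 0.000108). XPC and RRM2B, of DNA repair and nucleotide supply, fell from 37.5 to 14.3 CPM and from 46.6 to 20.5 CPM, and MDM2 fell from 112 to 74.4 CPM. BAX and PHLDA3 rose from 106 to 154 CPM and from 47.4 to 87.7 CPM. In the list of 22 apoptosis regulators, 8 rose and 8 fell, with a median log2 difference of -0.13 (5 and 13 with a median of -0.41 under library totals alone). The initiator caspases CASP8 and CASP10 fell from 17.1 to 8.28 CPM and from 7.202 to 3.48 CPM, while CFLAR, which restrains CASP8, fell from 12.04 to 7.41 CPM. BCL2L1, which restrains apoptosis, rose from 176 to 267 CPM. Among genes that promote death, HRK rose from 0.727 to 2.201 CPM, PMAIP1 from 9.91 to 20.4 CPM, BOK from 21.4 to 41.2 CPM and BAD from 27.3 to 47.96 CPM, whereas BMF fell from 2.11 to 0.644 CPM.

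Genes listed for DNA and histone methylation were lower more often than higher. Of 38 tested, 5 rose and 19 fell, with a median log2 difference of -0.32 (3 and 27 with a median of -0.60 under library totals alone). BMI1 is a subunit of polycomb repressive complex 1 and not itself a methylation enzyme. It was at 51.3, 62.6 and 59.7 CPM in EV and 23.6, 29.5 and 26.8 CPM in NICD2, with no overlap (log2 difference -1.12 ± 0.15 SE, limma adjusted p = 2.84e-05). EZH2, the polycomb methyltransferase, fell from 105 to 71.2 CPM, DNMT3B fell from 14.9 to 10.4 CPM, and the demethylases KDM4C and KDM6A fell from 17.9 to 7.72 CPM and from 12.5 to 6.17 CPM. TET3, a 5-methylcytosine oxidase, rose from 1.896 to 3.96 CPM.

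Most junction genes rose and most matrix genes fell. Of 32 genes of tight junctions, adherens junctions and desmosomes, 22 rose and 2 fell, with a median log2 difference of 0.67 (16 and 7 with a median of 0.38 under library totals alone, and 22 and 5 with a median of 0.76 with the GC trend removed). DSC2, a desmosomal cadherin, was at 1.13, 1.296 and 1.49 CPM in EV and 10.9, 11.3 and 12.6 CPM in NICD2, every NICD2 library above EV (log2 difference 3.10 ± 0.15 SE, limma adjusted p = 4.89e-10). CLDN7, a claudin, rose from 36.7 to 179 CPM, CDH1, E-cadherin, rose from 3.76 to 15.2 CPM, and DSP, desmoplakin, rose from 57.99 to 142 CPM. NECTIN4 fell from 12.6 to 4.67 CPM. Of 37 collagens and other matrix genes, 8 rose and 22 fell, with a median log2 difference of -0.74. VCAN, the proteoglycan versican, was at 102, 123 and 111 CPM in EV and 18.1, 24.6 and 19.2 CPM in NICD2, with a wide gap between the groups (log2 difference -2.45 ± 0.15 SE, limma adjusted p = 4.61e-09). COL3A1 had 439 reads over the EV libraries and none in NICD2, at least 109-fold lower. SPARC, a collagen-binding protein, fell from 6.402 to 0.547 CPM, and EFEMP2, an elastic fibre protein, fell from 17.5 to 0.6603 CPM. COL12A1, a collagen of fibril surfaces, rose from 4.44 to 14.3 CPM.

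Of 24 integrin and laminin genes, 10 rose and 7 fell, with a median log2 difference of 0.10 (5 and 11 with a median of -0.18 under library totals alone, and 8 and 8 with a median of 0.00 with the GC trend removed). LAMA3 and LAMB3, chains of epithelial basement membrane laminin, rose from 0.477 to 2.97 CPM and from 8.23 to 23.6 CPM. LAMA5 of laminin 511 fell from 118 to 40.3 CPM, and the collagen receptor chain ITGA2 fell from 9.07 to 3.04 CPM. Of 23 genes of the plasminogen system and other proteases, 15 rose and 4 fell, with a median log2 difference of 0.97. PLAU, the urokinase plasminogen activator, was at 14.5, 14.5 and 15.3 CPM in EV and 72.2, 83.97 and 74.8 CPM in NICD2, without overlap (log2 difference 2.38 ± 0.09 SE, limma adjusted p = 5.73e-11). The epithelial membrane proteases ST14 and PRSS8 rose from 53.8 to 171 CPM and from 18.04 to 51.9 CPM.

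Contractile genes were split. Of 36 actin and contractile genes, 16 rose and 12 fell, with a median log2 difference of 0.02 (7 and 16 with a median of -0.27 under library totals alone, and 11 and 14 with a median of -0.12 with the GC trend removed). TAGLN, transgelin of smooth muscle, fell from 54.4 to 6.97 CPM, and CNN1, calponin 1, fell from 5.86 to 0.784 CPM. TPM2 and MYH14 rose from 594 to 1293 CPM and from 40.6 to 102 CPM. Of 21 S100 proteins and annexins, 9 rose and 5 fell, with a median log2 difference of 0.08 (9 and 7 with a median of -0.21 under library totals alone). S100A6, a calcium-binding protein, was at 826, 523 and 637 CPM in EV and 3232, 2290.1 and 3305 CPM in NICD2, with NICD2 above EV throughout (log2 difference 2.16 ± 0.20 SE, limma adjusted p = 4.32e-07). S100A2, S100A11 and S100A10 rose from 56.1 to 337 CPM, from 67.5 to 288 CPM and from 256 to 695 CPM, and S100A4 fell from 181 to 103 CPM.

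Immune genes showed no single direction. Of 27 interferon-stimulated genes, 8 rose and 11 fell, with a median log2 difference of -0.20. BST2, the tether of budding virus particles, was at 29.8, 21.6 and 24.03 CPM in EV and 2.27, 2.18 and 1.87 CPM in NICD2, with no overlap (log2 difference -3.53 ± 0.20 SE, limma adjusted p = 3.22e-09). ISG15 and IFITM3 rose from 114 to 212 CPM and from 133 to 277 CPM. Of 25 antigen presentation genes, 13 rose and 6 fell, with a median log2 difference of 0.39 (8 and 9 with a median of 0.11 under library totals alone). HLA-DRA of MHC class II went from 2 reads over the EV libraries to 165, a ratio of 111 (exact 95% interval 30.2 to 923), and its transactivator CIITA rose from 0.253 to 0.796 CPM. CD74, the class II invariant chain, fell from 1.92 to 0.286 CPM. HLA genes share sequence, so their separate values are uncertain.

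Of 16 complement and coagulation genes, 5 rose and 7 fell, with a median log2 difference of -0.26. F12, coagulation factor XII, rose from 14.4 to 73.4 CPM, and F3, tissue factor, fell from 54.9 to 20.3 CPM together with its inhibitor TFPI, from 1.17 to 0.0927 CPM. Of 16 NF-kB targets tested, 6 rose and 5 fell, with a median log2 difference of -0.04 (2 and 6 with a median of -0.31 under library totals alone, and 3 and 6 with a median of -0.10 with the GC trend removed). CXCL16, a membrane-bound chemokine, rose from 21.97 to 51.1 CPM, and the inhibitor NFKBIA fell from 49.2 to 26.7 CPM.

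In developmental pathways most lists had more falls than rises. Of 34 genes of the TGF-beta and BMP pathway, 7 rose and 19 fell, with a median log2 difference of -0.33. The feedback inhibitors SMAD7 and PMEPA1 fell from 4.22 to 0.504 CPM and from 3.09 to 0.410 CPM, the receptor TGFBR2 fell from 9.51 to 2.63 CPM, and LTBP3, which stores latent TGF-beta, rose from 66.2 to 264 CPM. Of 24 YAP targets, 6 rose and 13 fell, with a median log2 difference of -0.29 (3 and 13 with a median of -0.58 under library totals alone). ANKRD1 and CRIM1 fell from 7.097 to 1.35 CPM and from 31.1 to 11.8 CPM, and the coactivator gene WWTR1 rose from 22.9 to 50.9 CPM. Of 31 semaphorin, plexin, netrin and slit genes, 6 rose and 15 fell, with a median log2 difference of -0.28. The receptor NRP1, neuropilin 1, was at 10.4, 13.05 and 12.6 CPM in EV and 2.003, 2.62 and 3.16 CPM in NICD2 and its NICD2 libraries lay below EV (log2 difference -2.20 ± 0.21 SE, limma adjusted p = 7.06e-07). ROBO1, the slit receptor, fell from 22.6 to 7.33 CPM, and SEMA6B rose from 18.5 to 47.03 CPM.

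Of 38 WNT genes, 16 rose and 13 fell, with a median log2 difference of 0.17 (11 and 14 with a median of -0.11 under library totals alone, and 14 and 13 with a median of -0.02 with the GC trend removed). Several ligands rose, among them WNT7B, from 3.89 to 11.2 CPM, and WNT10B, from 14.1 to 30.8 CPM. WNT5A, the main noncanonical ligand, fell from 315 reads to 1, an EV to NICD2 ratio of 235 (exact 95% interval 41.8 to 9293), and WNT16 fell from 15.1 to 3.68 CPM. The feedback genes AXIN2 and NOTUM fell from 6.44 to 3.24 CPM and from 31.5 to 9.55 CPM. Of 10 hedgehog genes, 1 rose and 6 fell, with a median log2 difference of -0.44. PTCH1, receptor and target of the pathway, fell from 4.78 to 0.995 CPM. Of 16 retinoid and vitamin D genes, 7 rose and 4 fell, with a median log2 difference of 0.18 (7 and 5 with a median of -0.10 under library totals alone, and 7 and 5 with a median of -0.04 with the GC trend removed). ALDH1A3, which makes retinoic acid, rose from 21.5 to 70.6 CPM, DHRS3 rose from 3.88 to 18.2 CPM, and CYP24A1, which inactivates vitamin D, fell from 112 to 17.99 CPM.

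Lysosomal, metal and transport genes completed the survey. Of 34 lysosome and autophagy genes, 18 rose and 5 fell, with a median log2 difference of 0.25 (7 and 11 with a median of -0.03 under library totals alone, and 14 and 9 with a median of 0.16 with the GC trend removed). TFEB, the master regulator of lysosome genes, was at 1.59, 1.42 and 1.53 CPM in EV and 8.54, 6.86 and 9.47 CPM in NICD2, without overlap (log2 difference 2.40 ± 0.18 SE, limma adjusted p = 4.21e-08), and the protease CTSD rose from 81.4 to 196 CPM. Of 21 genes of zinc, copper and iron handling, 7 rose and 7 fell, with a median log2 difference of -0.02 (8 and 7 with a median of 0.13 with the GC trend removed). The metallothioneins MT2A, MT1E, MT1X and MT1F rose, with MT2A going from 73.8 to 232 CPM, though these are close copies. The zinc carrier SLC39A6 fell from 104 to 57.3 CPM. Of 26 ion and water transport genes, 7 rose and 10 fell, with a median log2 difference of -0.19. The potassium channel KCNN4 rose from 36.9 to 97.0 CPM, and the carbonic anhydrase CA12 fell from 7.08 to 1.101 CPM. Of 29 listed mucins and secretory products 11 were tested, of which 2 rose and 7 fell, with a median log2 difference of -0.68. Among them MUC2, MUC16 and TFF2 passed the filter on low counts only through the EV libraries and could only fall. MUC15 had 660 reads over the EV libraries and none in NICD2, at least 164-fold lower, and TFF2, a trefoil peptide, went from 382 reads to 1, an EV to NICD2 ratio of 284 (exact 95% interval 50.7 to 11264). Of 29 glycosyltransferases, 7 rose and 9 fell, with a median log2 difference of -0.16 (3 and 15 with a median of -0.44 under library totals alone). GALNT5 fell from 10.4 to 1.96 CPM and GALNT6 rose from 7.45 to 16.5 CPM. Of 17 prostaglandin genes, 3 rose and 3 fell, with a median log2 difference of 0.05 (2 and 6 with a median of -0.21 under library totals alone, and 6 and 5 with a median of -0.04 with the GC trend removed).

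**Figure D3:**
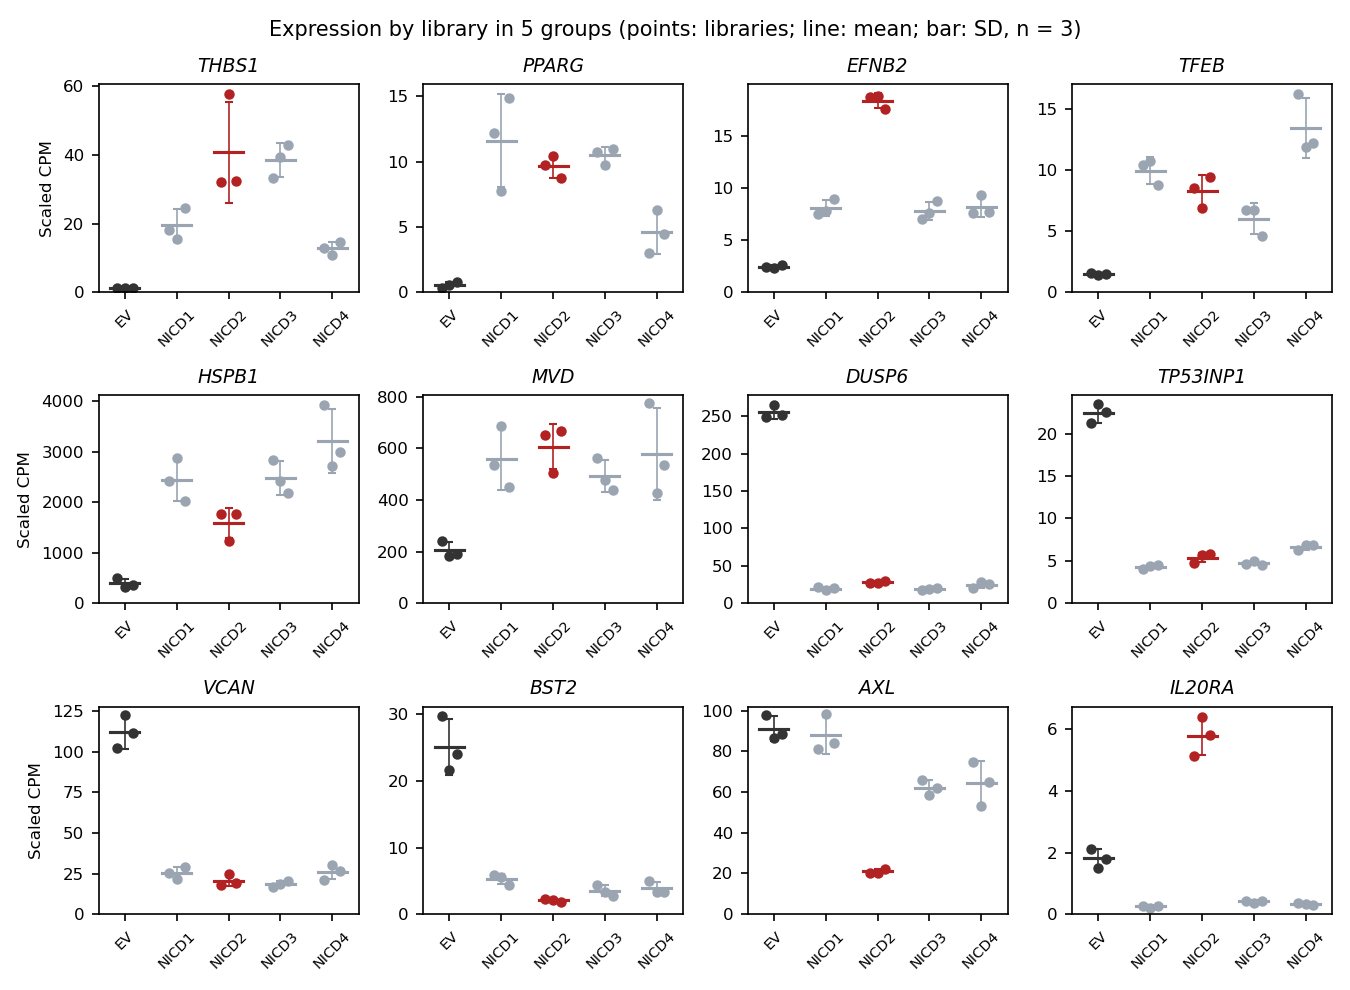
Scaled CPM by library (points) with group mean (line) and SD (bar, n = 3) for 12 genes in EV (black), NICD2 (red) and the other NICD groups (grey). EFNB2, AXL and IL20RA separate NICD2 from the other NICD groups, while in DUSP6, TP53INP1 and VCAN the EV libraries stand above all others.

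The direct differences from the other NICD groups do not use the EV means, though the scaling and the spread were fitted with the EV libraries included. The 24 genes named by rule from this comparison were taken only from genes also called in NICD2 against EV. Genes called in 1 direction against each of NICD1, NICD3 and NICD4 numbered 594 higher (3.93%) and 768 lower (5.08%) in NICD2, of which 54 (0.357%) and 123 (0.813%) differed by at least 2-fold from each. Without the GC trend these were 520 (3.53%) and 710 (4.82%), and library totals alone gave 948 and 475. Without NICD2 replicate 2 the counts were 241 and 369. Without the NICD4 library whose labels conflict, they were 865 and 1049, and the 24 genes named by rule were all still called. Without the NICD3 library labelled NICD23 they were 301 and 420, and 23 of the 24 were still called, all but CEP290. The single comparisons differed in extent: 2809 genes (18.6%) were higher and 2819 (18.6%) lower than in NICD1, 1028 (6.8%) and 1245 (8.23%) than in NICD3, and 5059 (33.5%) and 4541 (30.0%) than in NICD4.

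IL20RA, a chain of the receptors for the interleukins of the IL-20 family, was highest in NICD2, at 2.13, 1.51 and 1.799 CPM in EV and 5.14, 6.42 and 5.82 CPM in NICD2. Its means were 0.251, 0.415 and 0.326 CPM in NICD1, NICD3 and NICD4, so that NICD2 exceeded them by 4.26, 3.64 and 3.94 on the log2 scale. PPP3CA, the catalytic subunit of calcineurin, had 60.5 CPM in NICD2 against 25.8, 18.8 and 16.9 CPM in the others and 16.5 in EV. EFNB2 had 18.4 CPM against 8.12, 7.83 and 8.198 CPM. NR5A2, a nuclear receptor of gut and liver, had 15.3 CPM against 5.07, 4.63 and 7.02 CPM. CDKN2B, the CDK inhibitor p15, had 7.601 CPM against 1.697, 1.99 and 3.27 CPM. NR2F1, an orphan nuclear receptor, had 17.9 CPM against 4.39, 7.45 and 2.53 CPM, and reads of its antisense neighbour NR2F1-AS1 cannot be told from it without strand. The other genes at the top of this order, among those also called against EV, were KLF13, PRKACB, SLC39A8, SYT1 and CEP290.

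Lower in NICD2 than in each other group were GLIS3, a zinc finger factor, and its antisense GLIS3-AS1, which cannot be separated without strand. GLIS3 had 1.89 CPM in NICD2 against 9.13, 12.1 and 12.9 CPM, and 0.0739 CPM in EV. TNFSF4, the ligand OX40L, had 1.56 CPM against 9.195, 11.2 and 14.9 CPM, and 39.3 CPM in EV. AXL had 21.03 CPM against 87.8, 62.05 and 64.4 CPM, and SULT1A1, a sulfotransferase, had 7.52 CPM against 24.4, 25.04 and 22.8 CPM. For these 2 genes the EV means, 91.1 and 26.9 CPM, lay above NICD2 as well. ALPP, among the largest rises against EV, was nonetheless lower in NICD2 than in the others, at 7.59 CPM against 19.8, 40.5 and 27.2 CPM. SERPINF2, APOA1, GJB5, RTBDN, BCL6B and REEP2 completed the 12 lowest among genes also called against EV.

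Many cholesterol genes were higher in NICD2 than in the other NICD groups. Of 24 tested, 12 were higher in NICD2 than in all 3 other groups and 1 was lower, against 3.93% and 5.08% of all genes, and 11 and 0 without the GC trend. Leaving out 1 NICD2 library at a time gave 8 or 9 higher, and leaving out the NICD3 library labelled NICD23 gave 10. Their median difference was 0.33 from NICD1, 0.38 from NICD3 and 0.89 from NICD4, beside 0.02, 0.02 and 0.04 over all genes. HMGCS1 had 58.8 CPM in NICD2, against 25.9, 27.2 and 11.3 CPM in the other NICD groups, and 93.8 CPM in EV. HMGCS1 in NICD2 was thus called below EV and above each other NICD group. MSMO1, a sterol demethylase, had 101 CPM against 74.4, 63.3 and 37.6 CPM, and 67.9 CPM in EV. MVD, in contrast, was not called different from all 3, at 607 against 558, 493 and 578 CPM.

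Cytosolic ribosomal protein genes went the other way. None of 55 was higher in NICD2 than in all 3 other groups and 9 were lower, with medians of -0.43, -0.40 and -0.43 from NICD1, NICD3 and NICD4. Without the GC trend 13 were lower, without NICD2 replicate 1, 2 or 3 the count was 4, 1 and 5, and without the NICD4 library with conflicting labels it was 14. Without the NICD3 library labelled NICD23 it was 1. By these medians NICD2 lay between EV and the other NICD groups. Antigen presentation genes had 5 of 25 lower and none higher, with HLA-E at 52.97 CPM in NICD2 against 98.3, 107 and 140.0 CPM. Of 24 YAP targets 5 were higher and 2 lower, with CCN1, a matricellular protein, at 203 CPM against 54.5, 161 and 104 CPM. Without the NICD3 library labelled NICD23 the call of CCN1 was lost, and 4 YAP targets were higher.

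**Figure D4:**
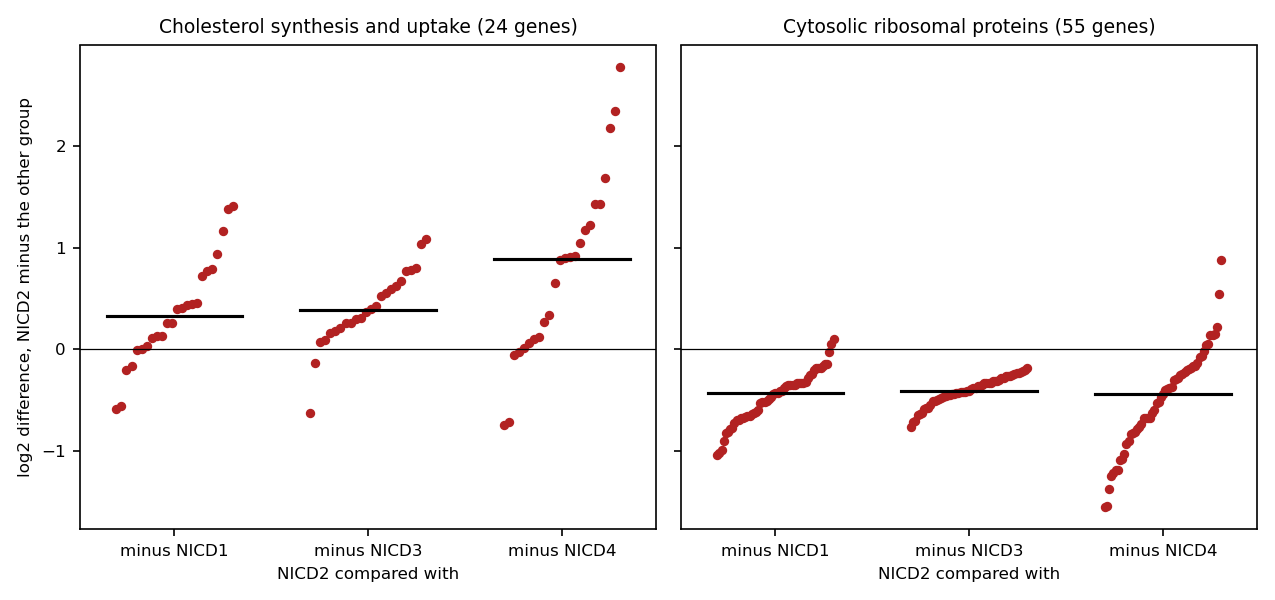
Log2 difference of NICD2 from NICD1, NICD3 and NICD4 (vertical axis) for each gene (points, sorted within a comparison) of the cholesterol list and the cytosolic ribosomal protein list, with the median as a black line. The cholesterol medians lie above 0 and the ribosomal medians below 0 in all 3 comparisons.

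Differences by chromosome ran with GC content. Chromosome 19, with a median transcript GC of 59.9%, had the highest median difference among the nuclear chromosomes, 0.27, and chromosome 4, at 44.2% GC, the lowest, -0.31. With the GC trend removed these were 0.02 and -0.14, and the nuclear chromosomes then ran from -0.15 on chromosome 21 to 0.10 on chromosome 6. The share of genes called higher rose from 8.07% in the lowest of the 10 GC groups to 52.2% in the highest. The cause of the trend was not tested.

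**Figure D5:**
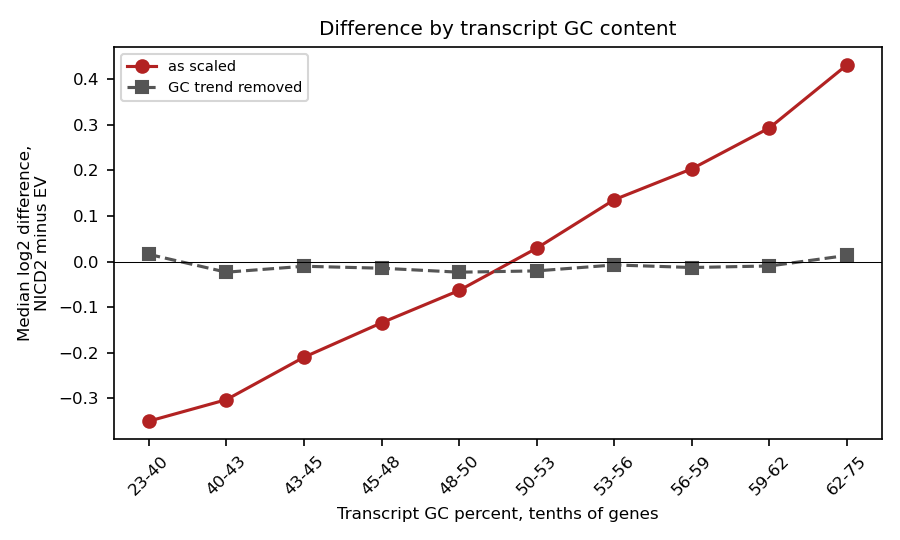
Median log2 difference between NICD2 and EV (vertical axis) in 10 groups of genes ordered by transcript GC percent (horizontal axis), as scaled (red circles) and with the trend removed (grey squares). The red line climbs from -0.35 to 0.43, and the dashed grey line stays between -0.02 and 0.02.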

How the data were processed

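Polyadenylated RNA of 15 libraries, 3 per group, was sequenced from unstranded TruSeq v2 libraries, per the labels' protocols. The deposited table holds, judged from its values, log2(reads + 1) for each gene, with no scaling. TopHat2 2.0.6, HTSeq and GRCh37 are named in the submitters' processing notes, and their settings are not given in the sources used here.

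Whole reads were recovered as 2 to the power of the value, minus 1. Library totals ran from 11630195 to 27704492. Genes needed 10 reads at the median depth in 3 libraries of any group and 15 in all, which left 15122. A gene high in 1 group alone could thus pass, and such a gene could differ from that group in 1 direction only. Counts were divided by TMM-scaled totals (factors 1.21 to 1.32 in EV, 1.02 to 1.09 in NICD2), and log2(scaled count + 1) was tested with limma 3.58.1 in R 4.3.3 (1 mean per group over all libraries, trended and robust prior, two-sided, Benjamini-Hochberg adjustment, calls at 0.05). The fitted log2 differences understate changes of low genes. Because the deposited unit is log2, limma was used throughout and no count model was run. The procedure was run on simulated counts in which few genes changed and no GC trend was built in. That setting differs from these data, so it cannot speak to the scaling or the GC trend.

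In a separate fit each library's trend on transcript GC (lowess span 0.3, from GENCODE transcripts) was removed for the 97.5% of tested genes with a GC value. Lists were matched by symbol and described by counts and medians. Members and lists were chosen with earlier results of these data known. Named genes were the 25 largest rises and falls, genes with no read in 1 group, members of counted lists, and HES1 and NOTCH2. Named too were the 12 highest and 12 lowest against the other NICD groups, among genes also called against EV. The other NICD comparisons share the spread estimate. Alternatives covered normalization, pseudocount, filters, prior, weights, GC, the replicate block and each EV and NICD2 library left out. Leaving out the NICD4 and NICD3 libraries with irregular labels was chosen after seeing the data. Some genes are not reported here.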

Additional observations from a re-analysis of the deposited data

Results flagged for a closer look

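NICD2 was called on one side of EV, and each of NICD1, NICD3 and NICD4 on the other, in 13 genes higher in NICD2 and 20 genes lower, where NICD2 also differed directly from each of the 3 by limma. The genes below are taken from the 8 in each direction with the widest separation among genes of at least 5 CPM in a NICD group. Given here are the 5 higher and 8 lower whose NICD2 calls, against EV and each of the 3, held with the GC trend removed. The other groups' calls against EV were not checked that way, and their side of EV did not always hold. STMN3 in NICD2 then stood at -1.21 from EV and also -1.21 from NICD1, which thus lay level with EV. From NICD3 and NICD4 it stood at -1.07 and -0.62, so these 2 groups lay below EV. PRKACB stood at 1.04 from EV and at 0.94 and 0.87 from NICD3 and NICD4, so NICD3 and NICD4 lay above EV. FNDC4 stood at -1.26 from EV and -1.01 from NICD1, so NICD1 lay below EV. Differences below are log2 against EV, in NICD2 first and then in NICD1, NICD3 and NICD4. All of these comparisons share the EV libraries.

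The 5 higher in NICD2 come first. IL20RA, the interleukin receptor chain, stood at 1.65 in NICD2 and at -2.61, -1.98 and -2.28 in the others. KLF13, a Kruppel-like factor, stood at 0.75 in NICD2 and at -0.46, -0.48 and -1.07 in the others. PRKACB, a catalytic subunit of protein kinase A, stood at 0.62 in NICD2 and at -0.92, -0.55 and -0.85 in the others. RAI14, an actin-associated protein, stood at 0.65 in NICD2 and at -0.41, -0.28 and -0.56 in the others. FRMD5, a FERM domain protein, stood at 0.31 in NICD2 and at -0.80, -0.55 and -0.81 in the others. The 8 lower in NICD2 follow. SERPINF2, alpha-2-antiplasmin, stood at -1.47 in NICD2 and at 0.66, 0.92 and 1.03 in the others. RTBDN, retbindin, stood at -0.70 in NICD2 and at 1.07, 1.01 and 1.37 in the others. BCL6B, a zinc finger repressor, stood at -0.76 in NICD2 and at 1.21, 1.07 and 0.85 in the others. IFITM2, an interferon-induced membrane protein, stood at -0.57 in NICD2 and at 0.82, 1.11 and 0.88 in the others. IFITM genes share sequence, so this value is uncertain. FNDC4, a fibronectin domain protein, stood at -0.93 in NICD2 and at 0.38, 1.08 and 1.39 in the others. PROCA1 stood at -0.61 in NICD2 and at 0.68, 1.04 and 1.31 in the others. USP2, a ubiquitin protease, stood at -0.49 in NICD2 and at 0.93, 0.78 and 1.84 in the others. STMN3, a stathmin, stood at -0.83 in NICD2 and at 0.75, 0.44 and 0.44 in the others.

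Under library totals alone 6 of these 13 genes kept their calls against EV in all 4 groups. KLF13, PRKACB and FRMD5 lost the call in NICD2, with log2 differences of 0.47, 0.34 and 0.02. SERPINF2, FNDC4 and PROCA1 lost it in NICD1, at 0.21, -0.07 and 0.22, and STMN3 in NICD3 and NICD4, at 0.02 and -0.11.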

How the results depend on the processing

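Under library totals alone the genes called higher against EV fell in number to 2847 and those called lower were 6661, and the genes differing from all 3 other NICD groups were 948 higher and 475 lower. Without a filter on low counts 355 were higher than in all 3. Leaving out 1 library at a time gave 3686 to 4729 genes higher and 3234 to 4899 lower than EV, and 241 to 865 higher and 369 to 1049 lower than all 3 other groups, with the lowest of the last pair without NICD2 replicate 2 and the highest without NICD4 replicate 1. Without NICD3 replicate 1 these were 301 and 420, and leaving out the NICD4 and NICD3 libraries was chosen after seeing the data. Genes differing from EV by at least 2-fold (1362 higher, 1713 lower) numbered 848 and 2668 under library totals and 879 and 983 with the stricter filter. Without a filter 2893 were lower by at least 2-fold, and without EV replicate 2 or 3 there were 1005 and 1107. The other alternatives for all these counts stayed within 1.5 times. The cause of these shifts was not tested, apart from the change of scale itself. Fitting only EV and NICD2 libraries gives no value for the other NICD groups. Same-numbered EV and NICD2 libraries deviated together with r = 0.227, 0.331 and -0.0923, so the numbers were not taken as pairs, and a replicate block gave 4499 higher and 4551 lower (4403 and 4378 with the GC trend also removed). Medians of 49 of 50 lists moved by more than their spread over NICD2 libraries under library totals, and 34 with the GC trend removed. Depth limits genes with few reads, where intervals cover counting error only.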
